A study of Mus musculus with 7 samples.

Results

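The S100 alarmins and the proteins that fill neutrophil granules were examined as RNA in whole hearts of 7 mdx mice, read 1 heart at a time. The genes were S100a8, S100a9, Lcn2, Ngp, Camp, Retnlg, Csf3r, Cxcr2, Ltf and Mpo. They were selected on these same arrays, because their values varied strongly between single hearts of both genotypes. The spread between hearts is therefore a description. A probe set was taken for a gene when the array annotation listed that gene and no other. By this rule 9 of the 10 genes had a probe set, exactly 1 each, out of 45037 probe sets and 18193 named genes on the array. Retnlg, which encodes a resistin-like protein secreted by neutrophils, had no probe set of its own and has no value here.

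The mdx mouse lacks dystrophin and models Duchenne muscular dystrophy. All 7 mice carried the mdx mutation, in a line derived from C57BL/10 ScSn, and were 7 months old. In 4 of them, named mdx HRTΔIKKβ, a floxed gene for IKKβ was deleted by Cre driven from Myh6, a promoter active in cardiomyocytes. IKKβ is the kinase that activates NF-κB through the classical pathway. The 3 controls, mdx IKKβf/f, were described as littermates with the same floxed alleles, and no Cre is listed for them. Because Cre acts in cardiomyocytes, neutrophils and other cells of the heart were not targeted. Ikbkb, the targeted gene, had 5 probe sets. Their differences between genotypes lay between -0.18 and 0.02 on the log2 scale, the groups overlapped for each, and limma adjusted p was 0.801 or more. Other cells of the heart keep the gene, and no source used here places the probes against the deleted part. These values therefore do not check the labels. The study itself reported reduced Ikbkb RNA by qPCR in mdx HRTΔIKKβ hearts, without saying whether these same hearts were used. The hearts were processed whole, so a higher value from more cells of a type and one from more RNA per cell cannot be told apart.

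Neutrophils are made in the bone marrow, and their granules are filled in order. Myeloperoxidase and the serine proteases of the azurophil granule are made first, in promyelocytes. The specific granule proteins lactoferrin, cathelicidin, lipocalin 2 and neutrophilic granule protein follow in myelocytes, and the transcripts of these proteins are scarce in the mature cell. S100a8 and S100a9 are abundant through maturity and in some monocytes. Csf3r and Cxcr2 are surface receptors of the mature cell. S100A8 and S100A9 pair as calprotectin, which is released at sites of damage and can signal through TLR4 and RAGE.

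The sequences just upstream of 5 of the genes are shown, since S100a8 with S100a9 and Ngp with Camp followed each other closely across hearts and Lcn2 departed from both pairs. Each is the 250 bases before the RefSeq start of the gene (GRCm38.p6), written 5′ to 3′ on the strand of the gene. Capitals mark matches on either strand to TTNNGNAA, the core letters that C/EBP factors, which drive granule genes, can bind.

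S100a8, chr3:90668821-90669070, plus strand: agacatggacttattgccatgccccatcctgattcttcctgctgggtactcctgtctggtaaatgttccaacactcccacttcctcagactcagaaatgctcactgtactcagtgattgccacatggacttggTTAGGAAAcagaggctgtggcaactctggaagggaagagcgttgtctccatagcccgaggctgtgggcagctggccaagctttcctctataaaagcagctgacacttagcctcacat

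S100a9, chr3:90695722-90695971, minus strand: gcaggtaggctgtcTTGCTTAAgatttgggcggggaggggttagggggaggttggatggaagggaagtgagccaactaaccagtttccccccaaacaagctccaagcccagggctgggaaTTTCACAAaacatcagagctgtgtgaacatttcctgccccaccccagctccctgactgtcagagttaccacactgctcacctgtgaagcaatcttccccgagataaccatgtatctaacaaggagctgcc

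Ngp, chr9:110419558-110419807, plus strand: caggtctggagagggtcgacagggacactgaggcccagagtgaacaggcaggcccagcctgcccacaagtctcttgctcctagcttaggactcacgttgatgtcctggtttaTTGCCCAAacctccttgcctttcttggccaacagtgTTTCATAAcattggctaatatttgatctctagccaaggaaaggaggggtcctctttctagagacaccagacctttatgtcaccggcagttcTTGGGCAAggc

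Camp, chr9:109849457-109849706, minus strand: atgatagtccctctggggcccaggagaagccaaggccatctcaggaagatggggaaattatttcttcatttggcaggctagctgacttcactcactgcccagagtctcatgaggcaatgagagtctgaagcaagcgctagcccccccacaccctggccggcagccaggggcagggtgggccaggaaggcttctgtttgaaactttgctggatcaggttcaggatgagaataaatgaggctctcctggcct

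Lcn2, chr2:32387740-32387989, minus strand: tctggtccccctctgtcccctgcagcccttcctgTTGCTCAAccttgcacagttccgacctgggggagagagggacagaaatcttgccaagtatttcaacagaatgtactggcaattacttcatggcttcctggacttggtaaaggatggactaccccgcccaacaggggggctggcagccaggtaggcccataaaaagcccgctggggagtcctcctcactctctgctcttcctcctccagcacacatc

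The letters occurred 3 times upstream of Ngp, 138, 102 and 11 bases before the start, and not at all upstream of Camp. S100a9 held 2 matches, 236 and 130 bases before its start, S100a8 held 1 at 117 bases and Lcn2 held 1 at 216 bases. Over the 10 genes, 6 windows held at least 1 match (S100a8, S100a9, Lcn2, Ngp, Ltf and Retnlg), against 36.8% of the 32851 RefSeq windows of the same length. The NF-κB (κB) consensus was found upstream of 1 gene, Csf3r, against 7.25% of all windows. TATAAA was found upstream of 1 gene, S100a8, against 12.4% of all windows. A match is only a description of the letters in the window.

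S100a8 and S100a9 encode the calcium-binding subunits of calprotectin. S100a8 read 8.22, 13.27, 8.13 and 6.99 in mdx HRTΔIKKβ replicates 1 to 4 and 12.85, 6.93 and 7.59 in mdx IKKβf/f replicates 1 to 3. All such values are log2 RMA values (robust multi-array average), on which 1 unit is a 2-fold difference. The high hearts were 1 of each genotype, mdx HRTΔIKKβ replicate 2 and mdx IKKβf/f replicate 1, and the lower of these was 24.9-fold above the next heart. S100a9 read 8.28, 13.10, 8.12 and 6.98 in mdx HRTΔIKKβ and 12.83, 7.13 and 7.44 in mdx IKKβf/f hearts. The order was almost the same, with the same pair of hearts 23.6-fold above the next. From lowest to highest heart S100a8 spanned 81.4-fold and S100a9 69.3-fold. Among the other 5 hearts the span of each was 1.29 log2 units.

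Ngp and Camp encode neutrophilic granule protein and the antimicrobial peptide cathelicidin. Ngp read 6.65, 11.92, 6.34 and 6.40 in mdx HRTΔIKKβ and 11.93, 6.40 and 6.71 in mdx IKKβf/f hearts. Camp read 5.80, 11.21, 5.39 and 5.21 in mdx HRTΔIKKβ and 11.30, 5.37 and 5.79 in mdx IKKβf/f hearts. The same 2 hearts were high for both genes, here with the control marginally ahead. The lower of them stood above the next heart by 37.0-fold for Ngp and 42.4-fold for Camp. The low hearts of both genes read below the array median, where RMA compresses differences, so these folds depend on that lower end. The other 5 hearts were close together, within 0.37 log2 units for Ngp and 0.60 for Camp. 

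Ltf, which encodes the iron-binding granule protein lactoferrin, read 6.69, 11.24, 6.15 and 7.91 in mdx HRTΔIKKβ and 10.85, 6.43 and 6.46 in mdx IKKβf/f hearts. The same pair was highest, 7.69-fold above the next heart, and mdx HRTΔIKKβ replicate 4 lay above the remaining 4. Mpo, which encodes the enzyme that makes hypochlorous acid, read 5.59, 9.73, 5.63 and 5.51 in mdx HRTΔIKKβ and 8.34, 5.68 and 5.50 in mdx IKKβf/f hearts. For Mpo the pair stood 6.32-fold above the next heart, and the remaining 5 hearts lay within 0.18 log2 units, with a mean over all hearts below the array median. Within the pair, mdx HRTΔIKKβ replicate 2 was the higher heart for Mpo.

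Lcn2 encodes lipocalin 2, a granule protein that binds bacterial iron carriers and that epithelium, liver and cardiomyocytes can also make. Lcn2 read 10.60, 10.65, 7.54 and 7.35 in mdx HRTΔIKKβ and 9.55, 7.63 and 7.08 in mdx IKKβf/f hearts. Here 3 hearts were high, because mdx HRTΔIKKβ replicate 1 was level with replicate 2, while that heart was with the low hearts for Ngp, Camp, Ltf and Mpo. The range of Lcn2 was 11.9-fold.

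The receptors varied least. Csf3r, the receptor for the growth factor G-CSF, read 6.80, 7.60, 6.57 and 6.57 in mdx HRTΔIKKβ and 7.14, 6.54 and 6.58 in mdx IKKβf/f hearts. The same pair of hearts was highest, but by 1.26-fold, and the whole range was 2.09-fold. Cxcr2, a receptor for CXC chemokines, read 6.52, 6.35, 6.00 and 6.31 in mdx HRTΔIKKβ and 6.51, 6.35 and 6.26 in mdx IKKβf/f hearts. Its range was 1.44-fold with no heart standing apart, and its mean was below the median of all probe sets, where RMA compresses differences.

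**Figure D1:**
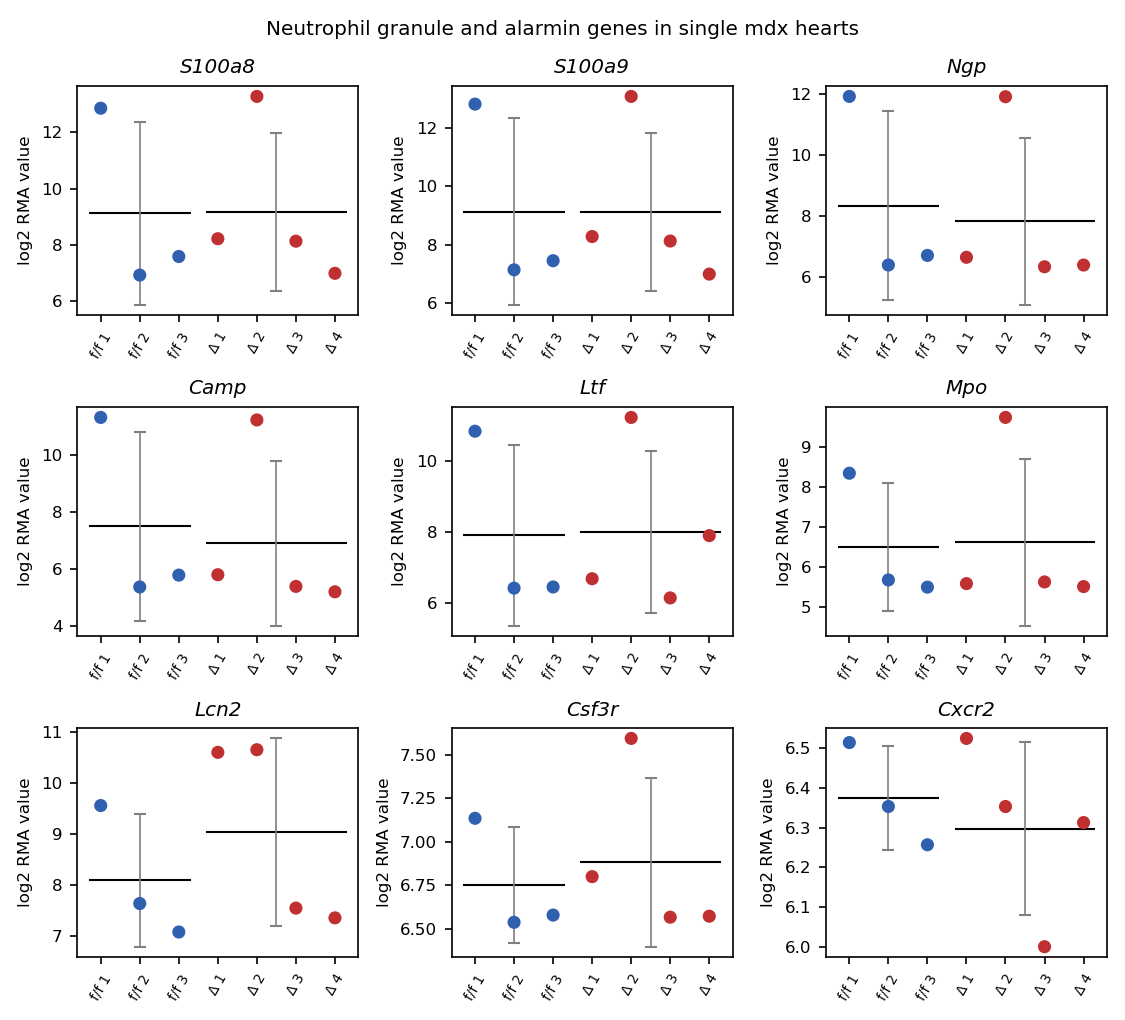
Log2 RMA value (vertical axes, scaled per gene) of the 9 measured genes in each heart (horizontal axes; f/f, mdx IKKβf/f replicates 1 to 3 in blue; Δ, mdx HRTΔIKKβ replicates 1 to 4 in red). Points are single hearts, horizontal lines are group means and grey bars are SD; f/f 1 and Δ 2 are highest for 7 genes, Δ 1 joins them for Lcn2, and Cxcr2 spans only 0.52 log2 units.

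Counted over the measured genes, 8 of 9 ranged over at least 1 log2 unit, all but Cxcr2, against 3.86% of all probe sets. In 7 of 9 genes the highest hearts were mdx HRTΔIKKβ replicate 2 and mdx IKKβf/f replicate 1, against 3.28% of probe sets. In 6 of 9 (S100a8, S100a9, Ngp, Camp, Ltf and Mpo) both were at least 1 log2 unit above the other 5 hearts, against 0.111% of probe sets. Since spread between hearts chose the genes, nothing is read from these shares. Of the 7 genes with this pair highest, Mpo had the smallest gap past that limit, 2.66 log2 units, and Csf3r lay below it at 0.34.

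Across the 7 hearts, Pearson's r was 0.999 between S100a8 and S100a9 and 0.999 between Ngp and Camp. It was 0.984 between S100a8 and Ngp, 0.965 between S100a8 and Mpo and 0.942 between S100a8 and Csf3r. Lcn2 followed S100a8 with r of 0.711 and Cxcr2 with 0.357. The hearts fall into 2 far from the other 5 for most of these genes, so the coefficients rest on those 2 hearts and describe only which hearts were high together. Rank correlations, which give these hearts less weight, were lower for pairs such as S100a8 and Ngp (Spearman's rho 0.667) and Ngp and Mpo (0.378).

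The genotype comparison asked whether deletion of IKKβ in cardiomyocytes changed these RNAs. None of the 9 genes differed between genotypes in the limma fit, and the values of the genotypes overlapped for every one. S100a8 averaged 9.15 ± 2.80 (SD, n = 4) in mdx HRTΔIKKβ and 9.12 ± 3.25 (SD, n = 3) in mdx IKKβf/f hearts. The log2 difference, taken throughout as the mdx HRTΔIKKβ mean less the control mean, was 0.03 ± 1.85 (SE), with a 95% interval from -4.29 to 4.34 (limma, adjusted p = 0.998). S100a9 differed by -0.02 ± 1.81 (SE; limma, adjusted p = 0.999). The intervals of both include differences of many fold either way, so equality of the groups is not shown.

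Camp had the lowest fitted difference, -0.58 ± 1.90 (SE), with group means of 6.90 and 7.49 (limma, adjusted p = 0.96). For Ngp the difference was -0.52 ± 1.79 (SE; limma, adjusted p = 0.962). Ltf and Mpo differed by 0.09 ± 1.48 and 0.11 ± 1.18 (SE), with limma adjusted p of 0.993 and 0.99. For Lcn2 the mean was 9.03 ± 1.83 (SD, n = 4) in mdx HRTΔIKKβ against 8.09 ± 1.30 (SD, n = 3) in the mdx IKKβf/f group, with a difference of 0.95 ± 1.02 (SE; limma, adjusted p = 0.858). Csf3r and Cxcr2 were estimated far more tightly, but both read near or below the array median in most hearts, where RMA compresses differences. Their differences were 0.13 ± 0.27 and -0.08 ± 0.12 (SE), with intervals from -0.50 to 0.77 and from -0.37 to 0.21 and limma adjusted p of 0.93 and 0.908.

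No member passed an adjusted p of 0.05, and 0% of all probe sets did in the same limma fit. At an unadjusted p under 0.05 the counts were 0 of 9 members and 6.07% of all probe sets. The means differed by at least 1.5-fold in 1 member, Lcn2, which was higher in mdx HRTΔIKKβ hearts, against 0.79% of probe sets higher and 0.242% lower by that amount. No member had groups that did not overlap, against 5.44% of probe sets. The median difference over the 9 genes was 0.03.

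Which heart was left out set the sign of most differences. Without mdx HRTΔIKKβ replicate 2 the median difference over the members was -0.995, and without mdx IKKβf/f replicate 1 it was 1.32. For S100a8 the corresponding differences were -1.34 and 1.90, and for Camp -2.02 and 1.32. With both of these hearts left out, S100a8 differed by 0.52 and Ngp by -0.09, and the median over the members was 0.09. None of these was past an adjusted p of 0.05 in limma.

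**Figure D2:**
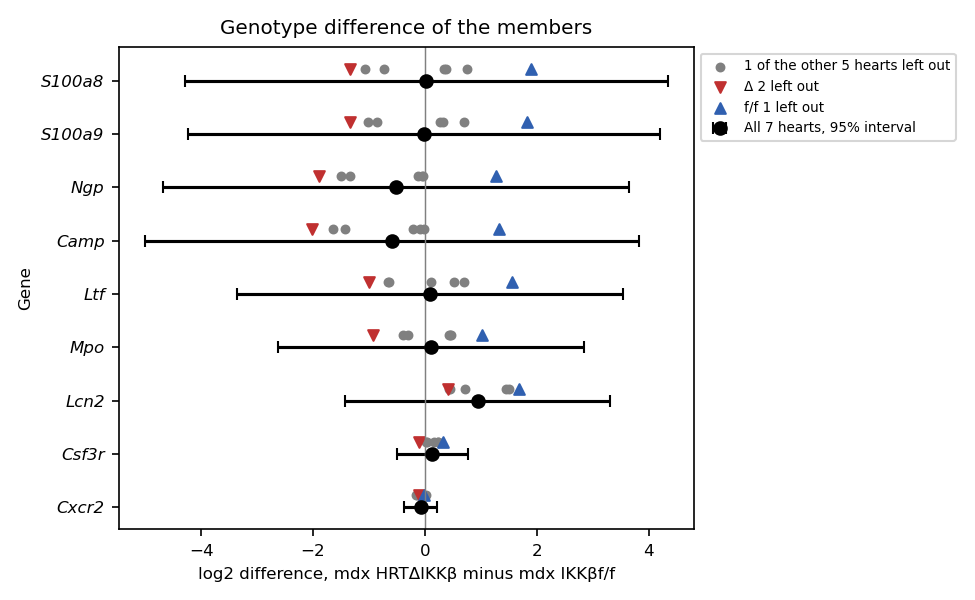
Log2 difference, mdx HRTΔIKKβ mean less control mean (horizontal axis), of each measured gene (vertical axis): black points and bars are the limma estimate and its 95% interval over 7 hearts, and symbols above them are the estimates with 1 heart left out. For S100a8 the difference moved from 0.03 to -1.34 without mdx HRTΔIKKβ replicate 2 (Δ 2) and to 1.90 without mdx IKKβf/f replicate 1 (f/f 1), whereas Csf3r and Cxcr2 stayed near 0.

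Other granule genes were read from lists of genes known from the literature of the neutrophil. Of 9 measured azurophil granule genes, 5 were highest in the same pair of hearts and 2 by at least 1 log2 unit, against 3.81% and 0.181% of the 18193 named genes. Prtn3, which encodes proteinase 3, read 7.36, 9.84, 7.10 and 7.20 in mdx HRTΔIKKβ and 9.07, 7.29 and 7.29 in mdx IKKβf/f hearts. Elane, neutrophil elastase, read 7.27, 9.34, 6.80 and 7.12 against 8.27, 7.09 and 7.02. These serine proteases were high in the hearts in which Mpo was high.

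Ctsg, the cathepsin G gene, read 6.05, 8.73, 5.76 and 5.87 in mdx HRTΔIKKβ and 6.86, 5.96 and 6.05 in mdx IKKβf/f hearts, where the lead of the control heart over the next was 0.81 log2 units. Serpinb1a, an inhibitor of these proteases, instead read 8.58, 8.53, 7.21 and 7.27 against 7.75, 6.99 and 7.30, an order close to that of Lcn2. Its difference between genotypes, 0.55 ± 0.40 (SE), did not pass the test (limma, adjusted p = 0.815).

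Of 20 measured specific and gelatinase granule genes, 11 were highest in the same pair and 6 by at least 1 log2 unit. Of all named genes 3.81% and 0.181% were. Wfdc21, a small secreted protein gene, read 5.32, 9.12, 5.25 and 5.04 in mdx HRTΔIKKβ and 8.42, 5.08 and 4.83 in mdx IKKβf/f hearts. Cd177, a neutrophil surface glycoprotein gene, read 4.37, 7.47, 3.66 and 4.08 against 7.03, 3.87 and 3.96. Both followed Ngp and Camp in having one high heart per genotype.

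Mmp8, neutrophil collagenase, read 5.24, 7.62, 5.22 and 4.63 in mdx HRTΔIKKβ and 7.20, 5.07 and 4.90 in mdx IKKβf/f hearts, and Mmp9, gelatinase B, read 7.06, 8.63, 7.01 and 6.70 against 7.85, 6.92 and 6.86. Chil3, a chitinase-like protein of neutrophil precursors and macrophages, had the widest range of this list. It read 8.47, 10.81, 4.50 and 4.96 in mdx HRTΔIKKβ and 9.51, 4.62 and 5.09 in mdx IKKβf/f hearts, so that mdx HRTΔIKKβ replicate 1 was again with the high hearts as for Lcn2. None of the 20 passed an adjusted p of 0.05 between genotypes in limma. At an unadjusted p under 0.05, 1 was higher in mdx HRTΔIKKβ hearts, near the 6.07% of all probe sets that passed it in either direction.

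Of 17 measured surface receptor genes of the mature neutrophil, 3 (17.6%) were highest in the same pair of hearts, against 3.81% of named genes, and 0 by at least 1 log2 unit. Fpr2, a formyl peptide receptor, read 6.54, 8.46, 6.38 and 6.28 in mdx HRTΔIKKβ and 7.53, 5.95 and 6.04 in mdx IKKβf/f hearts. Csf2rb, the shared beta chain of the GM-CSF receptor, read 7.55, 8.37, 7.03 and 7.03 against 7.20, 6.34 and 6.75, and the chemokine receptor gene Ccr1 read 7.44, 7.67, 6.63 and 6.45 against 6.69, 6.16 and 6.37. For the last of these the 2 highest hearts were both mdx HRTΔIKKβ.

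Clec4d, a lectin receptor gene, read 6.65, 6.69, 5.75 and 6.73 in mdx HRTΔIKKβ and 5.99, 5.73 and 5.30 in the mdx IKKβf/f group, with a difference of 0.78 ± 0.27 (SE; limma, adjusted p = 0.796). Ly6g had no value here. Among 11 granulopoiesis transcription factor genes 2 (Klf5 and Irf8, 18.2%) were highest in the pair, against 3.81% of named genes, and 0 by at least 1 log2 unit. Cebpa read 8.86, 9.83, 8.55 and 8.88 in mdx HRTΔIKKβ and 8.79, 8.21 and 8.39 in mdx IKKβf/f hearts. It was thus highest in mdx HRTΔIKKβ replicate 2 and, among controls, in replicate 1. Cebpb read 10.20, 10.20, 11.64 and 11.33 in mdx HRTΔIKKβ and 10.28, 10.80 and 10.38 in mdx IKKβf/f hearts. Like Cebpd, it was highest in mdx HRTΔIKKβ replicates 3 and 4, and not where the granule genes were high.

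Of 17 measured genes for factors that draw or expand neutrophils, 1 (Ppbp) had the pair highest, or 5.88%, close to the 3.81% of all named genes. Ppbp encodes a chemokine stored in platelets and read 8.32, 9.80, 8.13 and 7.43 in mdx HRTΔIKKβ and 9.65, 6.70 and 6.87 in mdx IKKβf/f hearts. Cxcl1 varied by 0.38 log2 units over all hearts, Csf3, which encodes G-CSF, by 0.25, and Il1b by 0.84. 

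In mdx HRTΔIKKβ replicate 1, where Lcn2 was high but Ngp and Camp were not, Cxcl5, Il6, Cxcl3 and Cxcl2 were at their highest. Cxcl5 read 6.41, 4.43, 3.68 and 3.90 in mdx HRTΔIKKβ and 4.00 in each mdx IKKβf/f heart. Il6 read 6.08, 4.70, 4.57 and 4.12 against 4.02, 4.15 and 4.15, Cxcl3 read 5.14, 3.51, 3.46 and 3.57 against 3.54, 3.51 and 3.50, and Cxcl2 read 5.94, 5.11, 4.94 and 4.64 against 4.68, 4.49 and 4.80. All of these values, those of that heart included, were below the array median of 6.74, where RMA compresses differences.

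Acute phase genes, which inflammation induces in liver and other tissues, had 0 of 18 measured with the pair highest, against 3.81% of named genes. Hp, the haptoglobin gene, read 9.10, 11.29, 8.11 and 8.02 in mdx HRTΔIKKβ and 9.04, 6.38 and 7.34 in mdx IKKβf/f hearts. Serpina3n, a serine protease inhibitor gene, read 11.07, 10.38, 8.35 and 8.62 against 7.62, 8.79 and 8.57, and thus was high in replicates 1 and 2 of mdx HRTΔIKKβ as Lcn2 was, but lowest in mdx IKKβf/f replicate 1. Socs3, a feedback inhibitor of cytokine signalling, read 9.47, 9.05, 9.48 and 8.03 against 7.57, 6.81 and 7.65. Its groups did not overlap, and its difference of 1.66 ± 0.38 (SE) did not pass the adjustment (limma, adjusted p = 0.79).

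**Figure D3:**
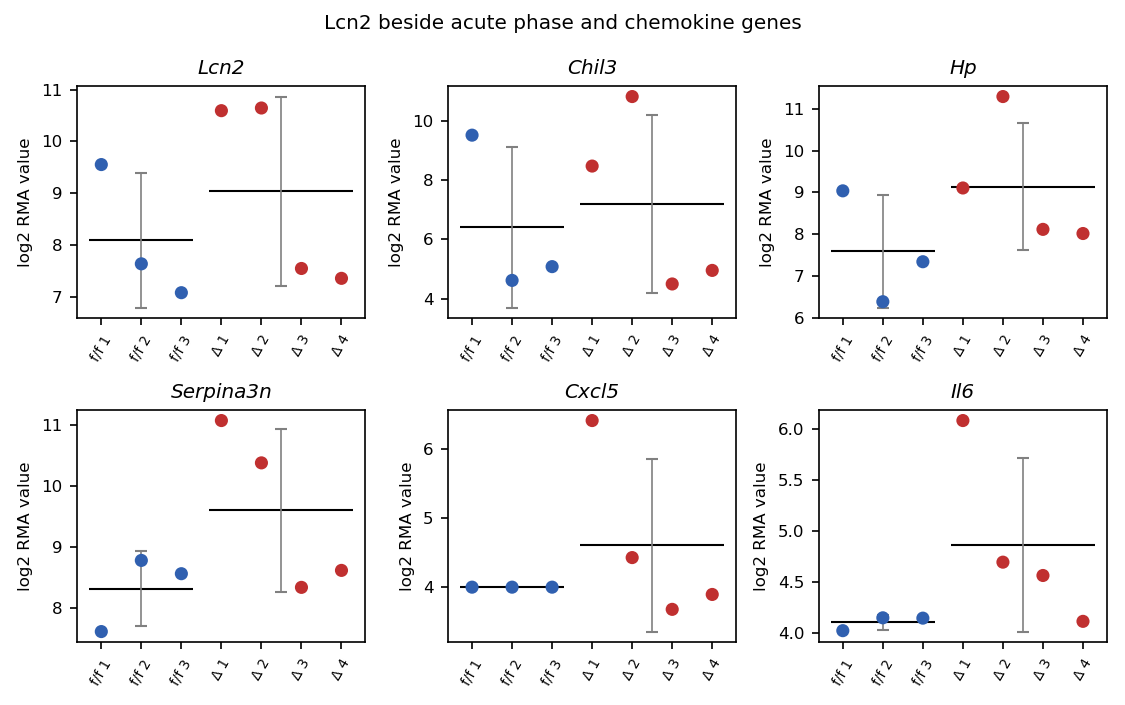
Log2 RMA value (vertical axes, scaled per gene) of Lcn2, Chil3, Hp, Serpina3n, Cxcl5 and Il6 in each heart (horizontal axes; f/f, mdx IKKβf/f in blue; Δ, mdx HRTΔIKKβ in red). Points are hearts, horizontal lines group means and grey bars SD; Δ 1 is among the higher hearts in all 6 panels, and in f/f 1 Lcn2 and Chil3 are high while Serpina3n is lowest at 7.62.

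Of 16 measured genes for calprotectin's receptors and related alarmins, 0 had the pair highest, a count near the 3.81% of all named genes. Tlr4, a receptor for calprotectin, read 8.38, 8.85, 8.37 and 8.75 in mdx HRTΔIKKβ and 8.23, 8.31 and 8.21 in mdx IKKβf/f hearts. The groups did not overlap, but the difference of 0.33 ± 0.13 (SE) did not pass the adjustment (limma, adjusted p = 0.796). Ager, which encodes RAGE, read 6.90, 7.58, 6.54 and 6.81 against 6.81, 7.01 and 6.62. Il33, an alarmin of stromal cells, read 8.46, 8.72, 7.15 and 8.30 against 7.56, 6.29 and 7.89.

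Among the other S100 family genes, with the binding protein S100pbp counted among them, 0 of 12 measured had the pair highest, again near that share. S100a4 read 9.61, 9.34, 8.18 and 8.39 in mdx HRTΔIKKβ and 8.96, 8.12 and 8.85 in mdx IKKβf/f hearts, and S100a6 read 11.58, 11.70, 10.80 and 10.91 against 11.12, 10.64 and 11.07. S100a10, the partner of annexin A2, read 11.05, 11.01, 10.66 and 10.79 against 10.34, 10.39 and 10.32. Here the groups did not overlap, and the difference of 0.53 ± 0.10 (SE) did not pass the adjustment (limma, adjusted p = 0.607). The 3 stefin A genes measured varied by at most 0.41 log2 units.

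Over the whole array, 50 probe sets were at least 1 log2 unit higher in mdx HRTΔIKKβ replicate 2 and mdx IKKβf/f replicate 1 than in every other heart. Of these, 45 carried a single gene name, for 40 genes in all, of which 6 were the members named above and 34 were others. The others held granule genes (Wfdc21, Cd177, Mmp8, Pglyrp1, Prtn3, Olfm4, Chil3 and Elane), erythroid genes (Slc4a1, Hemgn, Rhag, Nfe2 and Car2), genes of dividing cells (Mki67, Rrm2, Birc5, Top2a, Cks2, Cdca8, Ube2c, Cdca5 and Nusap1) and the bone genes Ibsp and Mmp13. These groupings were made after the values were seen, and a gene counts here by any of its probe sets. The brightest probe set of Ibsp read 5.57 in mdx HRTΔIKKβ replicate 2 and 5.04 in mdx IKKβf/f replicate 1, with no such gap. The erythroid gene Slc4a1, the anion exchanger of red cells, read 6.21, 8.98, 5.84 and 5.70 in mdx HRTΔIKKβ and 9.49, 6.00 and 5.97 in mdx IKKβf/f hearts.

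**Figure D4:**
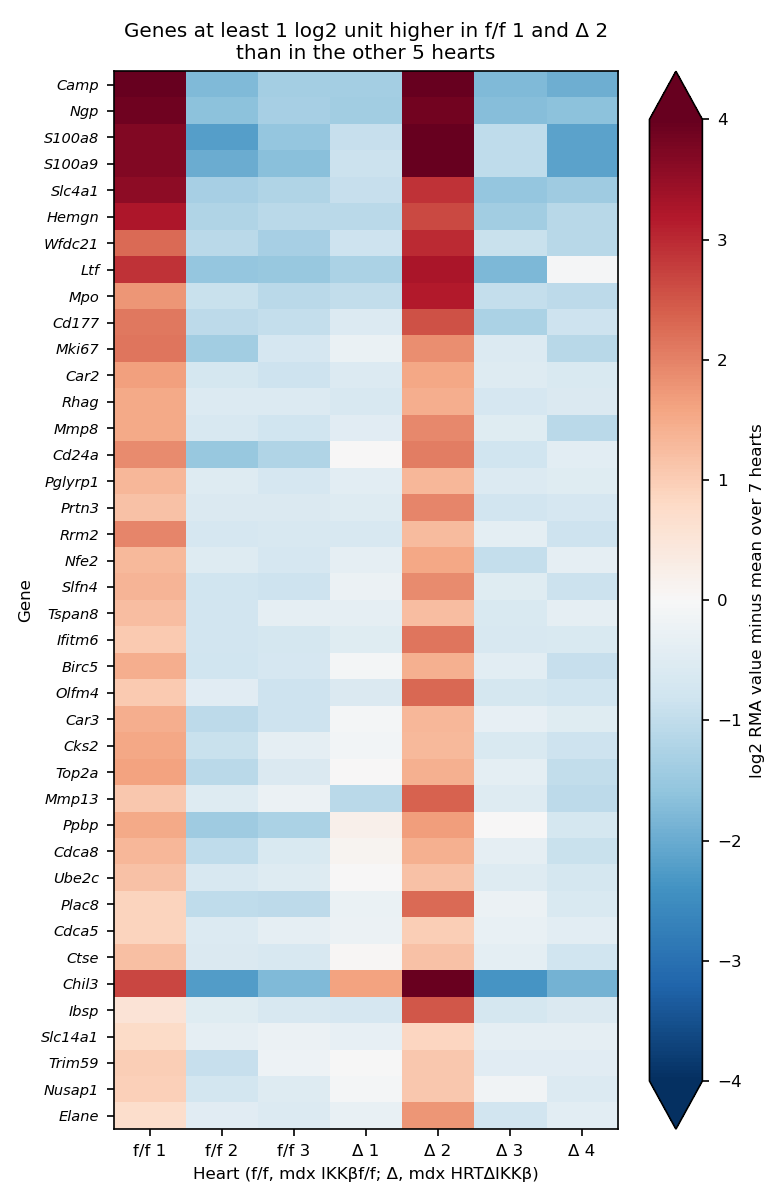
The 40 named genes (rows) whose log2 RMA value was at least 1 unit higher in mdx IKKβf/f replicate 1 (f/f 1) and mdx HRTΔIKKβ replicate 2 (Δ 2) than in the other 5 hearts (columns are hearts), coloured by the value minus its mean over 7 hearts, with colours capped at 4 units. Rows run from the widest gap between the lower of these hearts and the next (Camp) to the narrowest (Elane); Chil3 is the row in which Δ 1 is also clearly raised.

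The genes most like the members were taken from 864 genes outside the members that ranged over at least 1 log2 unit. The 10 most like the mean of S100a8 and S100a9 were Dbf4, Birc5, Slfn4, Mmp8, Mki67, Hmgb2, Wfdc21, Nusap1, Slc25a37 and Car2, with Pearson's r from 0.986 to 0.993 over 7 hearts. Mki67, a marker of dividing cells, read 7.14, 9.25, 6.85 and 6.28 in mdx HRTΔIKKβ and 9.55, 6.02 and 6.72 in mdx IKKβf/f hearts. The 10 most like the mean of Ngp, Camp and Ltf were Rhag, Pglyrp1, Slc14a1, Hemgn, Cd177, Car2, Cldn13, Slc4a1, Wfdc21 and Nfe2, with r from 0.986 to 0.997.

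Rhag, which encodes the Rh-associated glycoprotein of red cell membranes, read 3.85, 5.94, 3.82 and 3.90 in mdx HRTΔIKKβ and 6.01, 3.93 and 3.93 in mdx IKKβf/f hearts. Hemgn, an erythroid nuclear protein gene, read 4.20, 7.92, 3.88 and 4.17 against 8.53, 4.09 and 4.20. Both were flat across the other 5 hearts, as Ngp and Camp were. In those hearts Rhag and Hemgn read near the lower end of the array scale, where RMA compresses differences.

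For Lcn2, a list added after its values were seen, the most like was Myb, the transcription factor of blood progenitors and thymocytes, with r of 0.993 over 7 hearts. Myb read 7.89, 7.46, 4.78 and 4.75 in mdx HRTΔIKKβ and 6.85, 4.72 and 4.50 in mdx IKKβf/f hearts. The same 3 hearts were high for Myb as for Lcn2. After Myb came Limd2, Serpinb1a, Sash3, Slc15a3, Chil3, Prkcb, Itgb2, Arhgdib and Klf10, with r from 0.912 to 0.957.

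Scores of marker lists for other cells were set beside these values, each the mean over the list of log2 values centred on their mean over 7 hearts. The score of 10 immature neutrophil markers, 5 of them members, was 2.37 in mdx HRTΔIKKβ replicate 2 and 1.68 in mdx IKKβf/f replicate 1 and lay between -1.02 and -0.47 in the other hearts. A list of 11 erythroblast genes, added after the values were seen, scored 0.88 and 1.04 in the same hearts and between -0.46 and -0.25 in the others, with 9 of 11 genes highest in the pair. A list of 6 cell division genes, also added then, scored 1.26 and 1.40 there, with 6 of 6 highest in the pair, and at most -0.06 in the others. Beside these counts and those of the next lists, 3.81% of all named genes were highest in the pair. The lists added after the values were seen hold genes already seen to be high in the pair, such as Hemgn, Mki67 and Mmp13. Nothing is therefore read from the counts of those lists.

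The shorter erythroid marker list, with 4 genes measured, scored 0.65 in mdx HRTΔIKKβ replicate 2 and 0.83 in mdx IKKβf/f replicate 1 and at most -0.12 elsewhere. Its genes Slc4a1 and Alas2 were highest in the pair, while Hba-a1, a globin gene, read between 4.20 and 4.47, near the lower end of the array scale. Platelet and megakaryocyte markers scored 0.49 and 0.40 in the same hearts and at most 0.20 in the others, with 2 of 5 genes highest in the pair. That score rests largely on Ppbp, which ranged over 3.10 log2 units, while Pf4, the next widest, ranged over 0.97. Pf4 and Gp1bb were highest in mdx HRTΔIKKβ replicate 1. Among 10 bone genes, a list added in the same way, 5 were highest in the pair. The bone score was 0.74 in mdx HRTΔIKKβ replicate 2, 0.17 in mdx IKKβf/f replicate 1 and 0.06 in mdx IKKβf/f replicate 3. Of these genes, Mmp13 read 7.39 and 6.13 in the pair and at most 4.80 elsewhere. Adipocyte markers scored 1.76 in mdx HRTΔIKKβ replicate 2, 0.23 in mdx IKKβf/f replicate 1 and 0.19 in mdx HRTΔIKKβ replicate 1, with 1 of 4 measured highest in the pair. Macrophage and monocyte markers had 0 of 9 measured with the pair highest, a count near the 3.81% of all named genes, with scores from -0.25 to 0.26.

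The pair of hearts also differed from each other in markers of other tissues. Skeletal muscle markers scored 3.76 in mdx IKKβf/f replicate 1, 0.93 in mdx IKKβf/f replicate 3 and 0.37 in mdx HRTΔIKKβ replicate 2. Myh1, a fast skeletal myosin gene, was 12.95, 10.41 and 8.99 in those hearts and at most 4.33 in the other 4. Airway and alveolar markers scored 3.10 in mdx HRTΔIKKβ replicate 2, 1.90 in mdx HRTΔIKKβ replicate 4 and -1.49 in mdx IKKβf/f replicate 1. Sftpc, the surfactant protein C gene, was 11.83 in mdx HRTΔIKKβ replicate 2 and at most 6.66 elsewhere.

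Markers of B and plasma cells scored 2.19 in mdx HRTΔIKKβ replicate 2 and -0.25 in mdx IKKβf/f replicate 1. In mdx HRTΔIKKβ replicate 1 a thymocyte list, added after the values were seen, scored 1.72 against -0.23 at most in the others. Rag1, which cuts the antigen receptor genes of lymphocyte precursors, was 9.63 there and at most 4.54 elsewhere. Ventricular markers were high in every library, as the label of heart implies. Their scores lay between -0.15 and 0.11, and Myl2, the ventricular myosin light chain gene, read between 15.03 and 15.09. Atrial markers varied more, with scores from -1.99 in mdx IKKβf/f replicate 2 to 1.18 in mdx HRTΔIKKβ replicate 4. What part the tissues and cells behind these markers had in the values of the granule and alarmin genes was not tested.

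**Figure D5:**
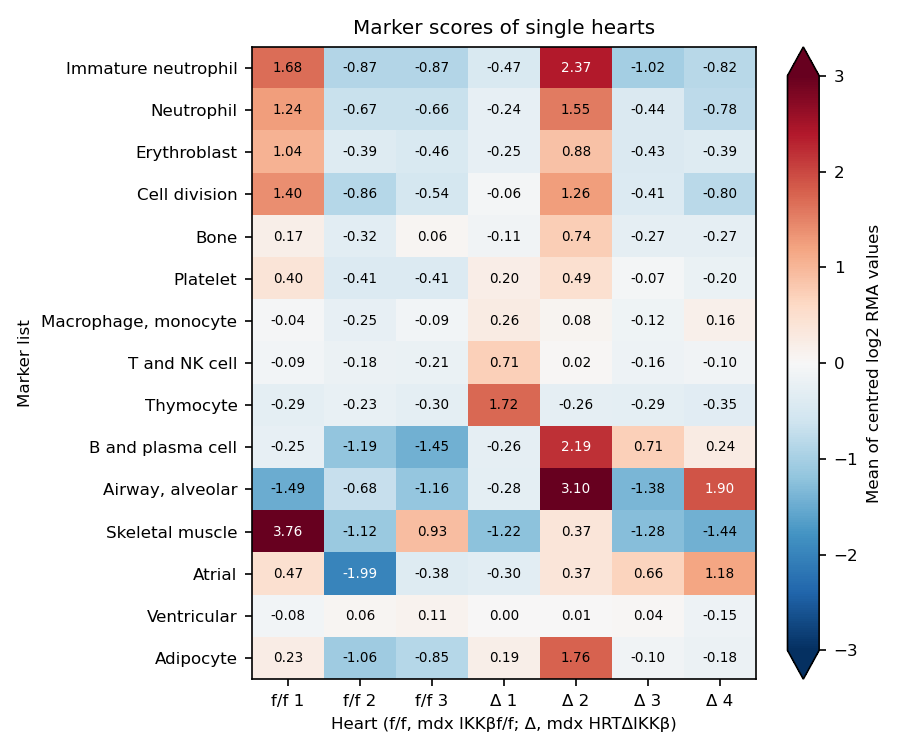
Score of 15 marker lists (rows; mean of log2 RMA values centred on their mean over 7 hearts, printed in each cell) in each heart (columns; f/f, mdx IKKβf/f; Δ, mdx HRTΔIKKβ), with colours capped at 3 units. Neutrophil, immature neutrophil, erythroblast, cell division, platelet, bone and adipocyte lists are highest in f/f 1 and Δ 2. For adipocyte f/f 1 (0.23) is barely above Δ 1 (0.19). For bone f/f 1 (0.17) is close to f/f 3 (0.06), and the platelet score rests largely on Ppbp. The neutrophil list holds the members S100a8, S100a9, Csf3r and Cxcr2, and the immature neutrophil list holds others. Those scores therefore partly repeat the values by which members were chosen. The erythroblast, cell division, bone and thymocyte lists were added after the values were seen, so their scores are a description. Skeletal muscle is highest in f/f 1 (3.76), airway in Δ 2 (3.10) and thymocyte in Δ 1 (1.72).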

How the data were processed

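Biotin-labelled RNA of each whole heart was read on its own Affymetrix mouse array. The deposited values are log2 intensities that the authors obtained by RMA (background correction, quantile normalization and a summary per probe set), in Partek per the study's methods, with Expression Console also named in the submitters' processing notes. Versions, and which program made the table, are not given in the sources used here. RMA compresses folds of dim probe sets and removes global shifts. Array medians lay between 6.73 and 6.75 and the lowest correlation between arrays was 0.987. The number of arrays limits the precision. The study describes its samples as biological replicates.

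Genotypes were compared with the lmFit and eBayes functions of limma 3.58.1 (R 4.3.3), without covariates or a filter. The tests were two-sided and p-values were adjusted by Benjamini-Hochberg across the 45037 probe sets. The code was tested on simulated data. Genes were named from the platform annotation, in which 34945 probe sets had 1 gene, 932 several and 9160 none, and current RefSeq symbols (GRCm38.p6) changed none of those named here. For lists and likeness the brightest probe set stood for a gene. Of 228 listed genes 197 were on the array. Members and lists were chosen with earlier results of these data known. The text names all members, the 4 genes of widest range in companion lists (not all are printed), 13 set genes and the 10 genes most like each pattern; others were chosen after their values were seen. Alternatives were replicate block, centring, further quantile normalization, trended variance, array weights, the methods' t-test, a filter on dim probe sets and leaving out hearts.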

Additional observations from a re-analysis of the deposited data

Results flagged for a closer look

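Within the 4 mdx HRTΔIKKβ hearts, 73 named genes and 17 marker scores were examined for a single heart standing apart, by its gap to the nearest heart as a share of the group's range, above Dixon's 95% critical value. In unselected groups chance gives such a heart in about 1 in 20. That rate does not apply here, because the members were chosen for their spread between these hearts, most other genes for range or likeness to them, and the genes move together. The shares below are therefore a description, and support nothing. They were past the limit in 21 of 90. In 18 cases the heart was replicate 2. Among the granule genes the share was 0.9006 for Camp, 0.9727 for Mpo, 0.9443 for Ngp, 0.9394 for Pglyrp1, 0.9072 for Prtn3, 0.9038 for Ctsg and 0.9324 for Wfdc21, and for the receptor gene Fpr2 it was 0.8814. Among erythroid and related genes it was 0.9644 for Car2, 0.8658 for Cldn13, 0.9213 for Hemgn, 0.9618 for Rhag, 0.9626 for Slc14a1 and 0.8425 for Slc4a1. The scores set apart in this heart were those of immature neutrophils (0.8364), skeletal muscle (0.8833), erythroblasts (0.8672) and bone (0.8475). Replicate 1 stood apart, high, for Cxcl3 (0.9312) and the thymocyte score (0.9599), and replicate 3 stood apart, low, for Clec4d (0.9138). S100a8, S100a9, Lcn2 and Ltf had no heart past this limit. The 3 mdx IKKβf/f hearts were not examined in this way.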

How the results depend on the processing

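No probe set passed an adjusted p of 0.05 in limma under any setting with all hearts, against 2735 at an unadjusted p under 0.05 (1692, with the filter on dim probe sets, to 3362 over the limma settings, hearts left out included; 2086 and, adjusted, 0 by the methods' t-test). With 1 heart left out the number past the adjusted p ran from 0 to 1, the 1 being Igk without mdx HRTΔIKKβ replicate 1 (adjusted p = 0.0463, against 0.79 with all hearts). The median difference of the members was lowest, at -0.995, when mdx HRTΔIKKβ replicate 2 was dropped and highest, at 1.32, when mdx IKKβf/f replicate 1 was dropped. With 1 heart left out, differences ran from -1.34 to 1.90 for S100a8, -1.34 to 1.83 for S100a9, 0.41 to 1.68 for Lcn2, -1.88 to 1.27 for Ngp, -2.02 to 1.32 for Camp, -0.10 to 0.33 for Csf3r, -0.15 to 0.0221 for Cxcr2, -0.995 to 1.55 for Ltf and -0.93 to 1.03 for Mpo.

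The direction also turned under array weights for S100a8 (-0.77), Ltf (-0.26) and Mpo (-0.30), and, with both high hearts left out (an alternative chosen after seeing the data), for S100a9 (0.51) and Mpo (-0.0121). The causes were not tested. The replicate block used only replicates 1 to 3, so mdx HRTΔIKKβ replicate 4 was dropped. S100a9 was then 0.70 and the median of the members 0.24. Leaving out that heart without a block gave the same differences for the members, so the block itself moved none of them. The labels pair no hearts, so the block is only a setting here. Deviations of same-numbered hearts correlated at -0.08, -0.38 and -0.04, but so few pairs cannot show whether such hearts shared a litter or batch. Of the values recomputed under these settings, 110 kept direction and side of the threshold and 23 reversed. The filter on dim probe sets left 7 members, without Cxcr2 and Mpo. With 3 or 4 hearts per genotype and a spread of several log2 units, a moderate genotype difference in the granule genes was not detectable.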
